A study of Mus musculus with 30 samples.

Results

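Red blood cells and the last precursors that make them carry a small set of messenger RNAs at very high levels, and 8 of these were followed in whole mouse brain: the adult beta-globin genes Hbb-bs and Hbb-bt, the adult alpha-globin genes Hba-a1 and Hba-a2, the haem synthesis genes Alas2 and Fech, the red cell anion exchanger gene Slc4a1 and Bpgm, the gene of bisphosphoglycerate mutase. They are 8 of the 19737 genes in the table, and all 8 passed the filter on low values, a mean of at least 10 normalized counts over the libraries compared. The genes were chosen by earlier results on these same libraries, in which Hbb-bs was lower in heterozygous than in wild-type brain at postnatal day 10 (P10). The difference at P10 is therefore given as a description with no test, and tests are kept to comparisons made in other mice and to how the genes vary from mouse to mouse within a group. The table holds 30 libraries in 6 groups of 5, each from the whole brain of a male C57BL/6N mouse. At P10 the groups were WT and HT, where HT mice are heterozygous for a germline mutation of Arid1b (Arid1b+/-) that is present in every cell, and none of these mice had been treated. At P120 the groups were WT-Veh, HT-Veh, WT-Flx and HT-Flx. The dams of the Flx groups drank 0.1 mg/ml fluoxetine, a serotonin reuptake inhibitor, in 0.2% saccharin from postnatal day 3 to 21, so that their pups took it up in milk, and the dams of the Veh groups drank the saccharin alone. The pups drank plain water from day 21 on and had been without the drug for months when their brains were taken. Which pups shared a dam is not given in the sources used here.

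Arid1b was read in every library as a check of the labels. It lay between 1973 and 2616 normalized counts in all HT libraries but 1, and between 2961 and 3392 in all WT libraries but 1. The library labelled HT-Veh 2 had 3361, inside the WT range, and the library labelled WT-Veh 2 had 2320, inside the HT range. Both go against their labels and were kept under them. The vehicle groups were compared first in replicates 1, 3, 4 and 5, which is also the set of vehicle libraries that the study's supplementary data list, and then with all 5 and 5, and the results that use these libraries are given with and without them. The defining neuron markers were high throughout, with a summed value from 157545 to 226337 over the 8 genes of the list. The libraries also differed in how values depended on the GC content of a gene. This GC tilt is the mean log2 deviation of the genes in the highest of 10 GC bins minus that in the lowest bin, within an age. It ran from −0.35 to 0.09 at P10, from 0.54 to 1.31 in HT-Flx, from −0.80 to −0.61 in WT-Flx, from −0.77 to 0.83 in HT-Veh and from −0.52 to 0.46 in WT-Veh.

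Adult haemoglobin is a tetramer that pairs alpha-globin with beta-globin chains around haem, and red cell precursors must make both chains and haem in step, since unpaired chains and free haem damage the cell. Alas2 encodes the red cell form of the first enzyme of haem synthesis and sets its rate, and Fech encodes ferrochelatase, the last enzyme, which inserts iron into the ring and is used by every cell with mitochondria. Slc4a1 encodes band 3, which exchanges chloride for bicarbonate and anchors the red cell skeleton, and Bpgm makes the metabolite that lowers the oxygen affinity of haemoglobin. Mature mouse red cells have no nucleus, but young red cells (reticulocytes) still hold globin RNA, so a brain with blood in its vessels contributes it to the library. Low levels of globin RNA in some neurons and glia have also been described. The methods mention no perfusion before these brains were placed in RNAlater, and the blood content of each brain was not measured.

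The beta-globin genes lie side by side on chromosome 7, Hbb-bs (ENSMUSG00000052305) at chr7:103826534-103828096 and Hbb-bt (ENSMUSG00000073940) at chr7:103812524-103813996, both on the minus strand of GRCm38. The alpha-globin genes lie on the plus strand of chromosome 11, Hba-a1 (ENSMUSG00000069919) at chr11:32283511-32284465 and Hba-a2 (ENSMUSG00000069917) at chr11:32296489-32297298. Alas2 (ENSMUSG00000025270) is at chrX:150547375-150570638 on the plus strand, Slc4a1 (ENSMUSG00000006574) at chr11:102348824-102366203 on the minus strand, and Bpgm (ENSMUSG00000038871) at chr6:34476207-34505613 on the plus strand. The globin genes have 3 exons each. The alpha-globin transcripts share a run of 415 identical bases, and the beta-globin transcripts a run of 430. Of the 100-base windows of each transcript, 56.5% of those of Hba-a1, 74.5% of Hba-a2, 62.6% of Hbb-bs and 54.8% of Hbb-bt also occur in the other gene of the pair. How reads were divided within a pair is therefore uncertain, and the sum of a pair is the firmer value.

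The 250 bases before the transcription start of 5 of the genes are shown because these genes fall into sets that varied together, as described further on, and because globin promoters are a textbook case of shared short elements. RefSeq starts on GRCm38.p6 were used. For the genes shown they lie inside the gene spans given above, which come from another annotation, so each window overlaps its span. Each sequence is written 5′ to 3′ on the gene's own strand. Capitals mark every match to a motif, on either strand. The motifs are GATAA, bound by GATA factors, the CACCC box, the CCAAT box and TATAA, the core of the TATA box.
Hbb-bs, chr7:103827929-103828178, minus strand: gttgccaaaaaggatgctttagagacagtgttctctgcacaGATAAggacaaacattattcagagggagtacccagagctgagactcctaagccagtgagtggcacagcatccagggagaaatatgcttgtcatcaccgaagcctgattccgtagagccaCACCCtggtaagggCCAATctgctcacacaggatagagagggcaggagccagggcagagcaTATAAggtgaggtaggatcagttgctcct
Hbb-bt, chr7:103813924-103814173, minus strand: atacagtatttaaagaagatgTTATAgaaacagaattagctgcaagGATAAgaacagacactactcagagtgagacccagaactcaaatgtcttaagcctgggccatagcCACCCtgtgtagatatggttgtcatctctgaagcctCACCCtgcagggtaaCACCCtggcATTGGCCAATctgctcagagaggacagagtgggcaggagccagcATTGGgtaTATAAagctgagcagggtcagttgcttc
Hba-a1, chr11:32283422-32283671, plus strand: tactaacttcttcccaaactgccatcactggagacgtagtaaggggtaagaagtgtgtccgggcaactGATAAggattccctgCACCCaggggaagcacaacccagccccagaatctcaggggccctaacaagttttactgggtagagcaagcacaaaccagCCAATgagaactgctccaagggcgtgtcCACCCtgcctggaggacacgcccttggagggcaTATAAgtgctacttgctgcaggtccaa
Alas2, chrX:150547167-150547416, plus strand: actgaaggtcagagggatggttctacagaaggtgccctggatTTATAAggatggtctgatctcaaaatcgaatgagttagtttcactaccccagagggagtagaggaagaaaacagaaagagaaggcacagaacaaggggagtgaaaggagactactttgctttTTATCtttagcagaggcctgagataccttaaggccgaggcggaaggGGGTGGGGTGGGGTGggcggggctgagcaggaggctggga
Bpgm, chr6:34476106-34476355, plus strand: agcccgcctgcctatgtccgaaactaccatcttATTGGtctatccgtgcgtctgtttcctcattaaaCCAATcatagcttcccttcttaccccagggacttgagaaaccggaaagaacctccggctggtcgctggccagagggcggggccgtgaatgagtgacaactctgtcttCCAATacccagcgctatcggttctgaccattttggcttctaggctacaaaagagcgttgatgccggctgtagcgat

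The Hba-a2 window, chr11:32296242-32296491, is the same sequence as that of Hba-a1 moved by 3 bases, with 247 of 247 aligned bases identical, and is not printed. Those of Hbb-bs and Hbb-bt matched at 127 of 249 aligned bases (51.0%). Counted back from the start, Hbb-bs held GATAA at −209, CACCC at −90, CCAAT at −76 and TATAA at −29. Hba-a1 held GATAA at −182, CACCC at −167 and −60, CCAAT at −88 and TATAA at −27. Hbb-bt held all 4 as well, with 3 copies of CACCC. Alas2 held GATAA at −86, 3 abutting copies of CACCC on the reverse strand, an overlapping pair of TATAA and no CCAAT. Bpgm held CCAAT 3 times and none of the other motifs. Over all 32851 promoter windows of the same length, GATAA occurred in 22.6%, CACCC in 52.0%, CCAAT in 33.8% and TATAA in 22.8%. A match describes the letters of the window and was not tested as a binding site.

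The levels of the 8 genes spanned a wide range. Per kilobase of transcript, the mean over the 30 libraries was 5561 normalized counts for Hbb-bs, 5323 for Hba-a2, 2936 for Hba-a1, 880.3 for Hbb-bt, 833 for Bpgm, 272 for Fech, 65.7 for Alas2 and 3.83 for Slc4a1. Hbb-bs and Hba-a2 did not differ beyond their spread over libraries in this order, nor did Hbb-bt and Bpgm, and the order within a globin pair rests on the uncertain division of shared reads. The 4 globin genes together made up 0.0133% to 0.0409% of the summed value of a library. The genes also fell apart by how much they varied. The coefficient of variation over the 30 libraries was 30.1% for Hbb-bs, 34.7% for Hbb-bt, 33.9% for Hba-a1, 33.4% for Hba-a2, 37.8% for Alas2 and 77.1% for Slc4a1, but 9.32% for Fech and 6.46% for Bpgm. Fech and Bpgm were thus steady from brain to brain, while the globins, Alas2 and Slc4a1 were not, as the plot of each gene by library shows.

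**Figure D1:**
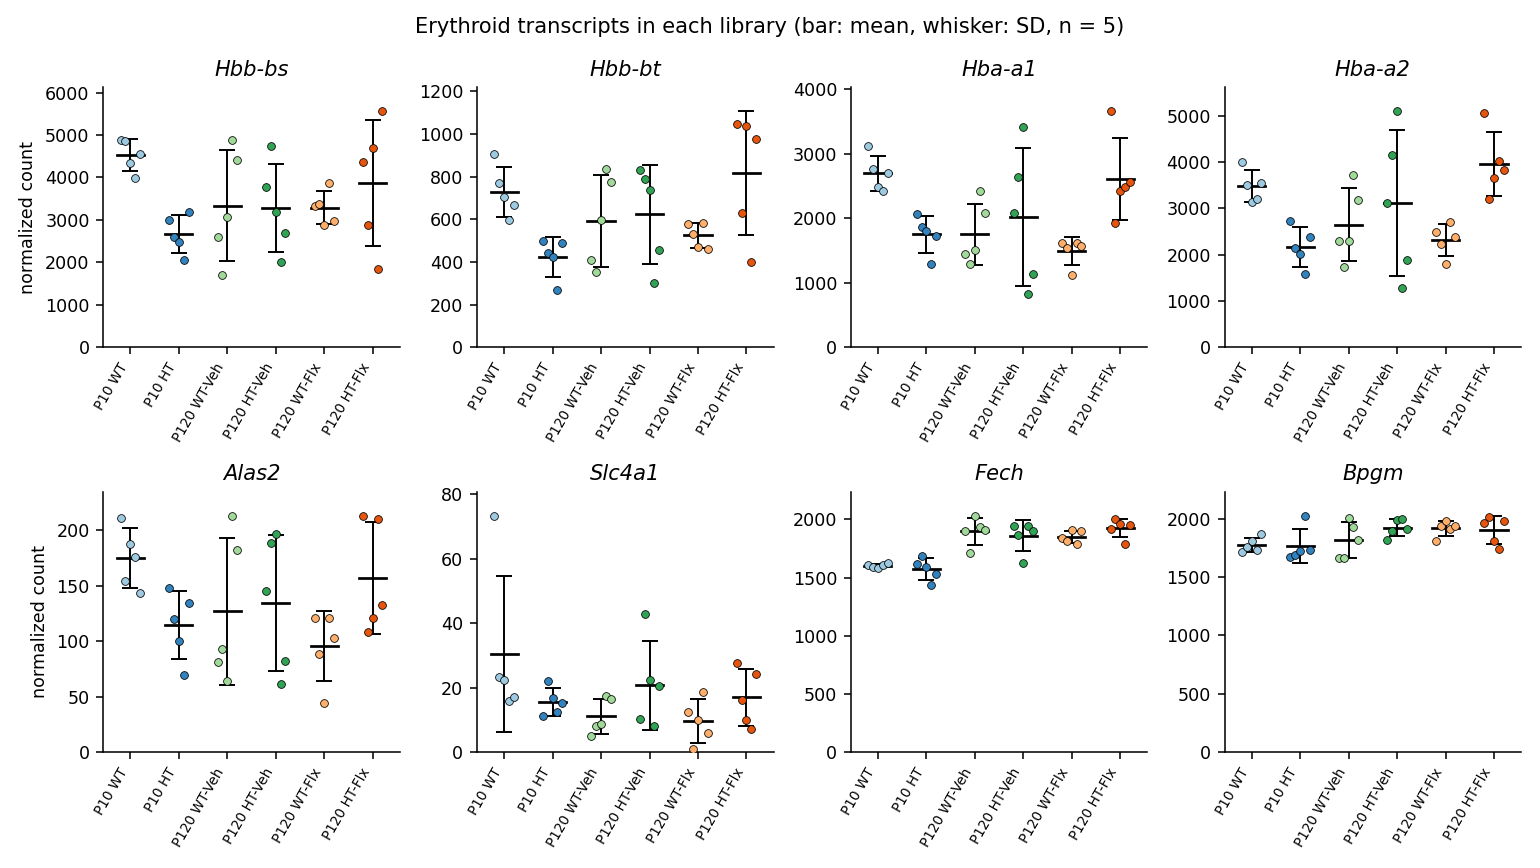
Normalized counts (y axis, each panel from 0) of the 8 genes in each of the 30 libraries, by group (x axis); points are libraries, the bar is the group mean and the whisker the SD (n = 5). The 5 P10 HT libraries lie below the 5 P10 WT libraries for each of the 4 globin genes, the P120 groups other than WT-Flx are wide, and Fech and Bpgm lie in narrow bands.

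At P10, on the contrast by which the genes were selected, both beta-globin genes were lower in HT. Hbb-bs, the main adult beta-globin, had 3001, 2589, 2487, 2054 and 3194 normalized counts in the HT libraries and 4878, 4857, 4339.8, 3980.3 and 4547 in the WT libraries, means of 2665 ± 448 and 4520.4 ± 376 (SD, n = 5). Every HT library was below every WT library, and the log2 difference was −0.77 (SE 0.10). Hbb-bt, the minor beta-globin, had 497, 444, 425, 267 and 488 in HT against 907, 769, 705, 598 and 665 in WT, again with no overlap, and a log2 difference of −0.80 (SE 0.16). HT replicate 4 was the lowest library for both genes. In brain tissue as a whole, fewer cells that hold an RNA and less of that RNA per cell cannot be told apart.

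The alpha-globins were lower in the same libraries. Hba-a1 had 2069, 1867, 1796, 1295 and 1719.8 in HT and 3114, 2763, 2480.2, 2424 and 2696 in WT, a log2 difference of −0.63 (SE 0.11). Hba-a2 had 2728, 2152, 2019, 1573 and 2380.4 against 4002, 3507, 3139, 3198 and 3546, a log2 difference of −0.70 (SE 0.12). Neither gene overlapped between the groups, and HT replicate 4 was again the lowest. Alas2, the red cell enzyme of haem synthesis, had 148, 120.1, 100.4, 69.5 and 135 in HT and 212, 155, 188, 176 and 143 in WT. Its groups overlapped by 1 library, HT replicate 1 at 148 against WT replicate 5 at 143, and the log2 difference was −0.64 (SE 0.18).

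Slc4a1 was close to the lower limit of the measurement, with 11.2, 22.2, 16.7, 12.4 and 15.1 in HT and 73.4, 23.4, 22.3, 15.9 and 17.0 in WT. WT replicate 1 held 73.4 and the other 9 libraries between 11.2 and 23.4, so the log2 difference of −0.72 (SE 0.36) rests largely on that library. Fech (ENSMUSG00000024588), on the minus strand of chromosome 18, lay between 1433 and 1688 in HT and between 1585 and 1622 in WT, a log2 difference of −0.03 (SE 0.05). Bpgm lay between 1673 and 2027 in HT and between 1718 and 1869 in WT, a log2 difference of −0.01 (SE 0.05). The 4 globin genes and Alas2 thus had log2 differences from −0.80 to −0.63. Fech and Bpgm, which other cells use as well, had group means that differed by less than the SD of the HT group. Of the 8 genes, 1, Hbb-bs, passed an adjusted p of 0.05, where 0.0224% of the 17896 genes tested did, and 4 had all HT libraries below all WT libraries, where 1.69% of genes did. Since these values chose the genes, nothing is read from the counts or from the differences between the genes.

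Several measurements moved or did not move with globin at P10. After each library was corrected for the GC content and length of the transcripts, the log2 differences were −0.74 for Hbb-bs, −0.76 for Hbb-bt, −0.53 for Hba-a1, −0.60 for Hba-a2 and −0.58 for Alas2. With Hbb-bs as a covariate in the model, that of Hba-a1 was −0.0058 (SE 0.18), that of Hba-a2 0.13 (SE 0.14), that of Hbb-bt 0.28 (SE 0.19) and that of Alas2 0.38 (SE 0.33). Hbb-bs separated the P10 groups completely and chose the genes, so nothing is read from these terms. The log2 ratio of summed alpha-globin to summed beta-globin was 0.34 ± 0.12 in HT and 0.23 ± 0.07 in WT (SD, n = 5). Alas2 relative to Hbb-bs differed by 0.13 between the groups, whereas Fech relative to Alas2 was 0.61 higher in HT.

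Other blood and vessel markers were read in the same libraries. Of the neutrophil list (8 of 12 listed genes in the table), the summed value ran from 86.0 to 127 in HT and from 53.9 to 179 in WT. The platelet list (5 of 8) gave 212 to 301 in HT and 144 to 239 in WT, the lymphocyte list (4 of 10) 104 to 205 and 183 to 261, and the list of brain endothelial markers (15 of 15) 14885 to 16128 and 15545 to 17094. The pericyte markers (6 of 6) were the only one of these lists whose groups did not overlap, at 8861 to 10520.4 in HT and 10645 to 11232 in WT. Of single genes, 1.69% had every HT library below every WT library at P10, and nothing is read from the missing overlap of this list. None of the genes of these lists passed an adjusted p of 0.05 in limma, where 0.0224% of all genes tested did. The neutrophil markers Camp, Ngp, S100a8 and Ltf were at 0 in some libraries. The part of blood volume, vessels or blood composition in the globin difference was not tested.

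In adult vehicle mice, the question was whether the P10 pattern was present in other animals at P120, and no difference beyond the spread was found. Over the 4 libraries of each vehicle group that were compared first, Hbb-bs averaged 2914 ± 749 in HT and 3737 ± 1083 in WT (SD, n = 4). All 5 libraries had 3771, 4748, 3192, 2010.5 and 2682 in the HT group and 2594, 1708, 3064, 4876 and 4414 in the WT group, replicates 1 to 5, so the groups overlapped over most of their range. The log2 difference of Hbb-bs was −0.35 (SE 0.25, adjusted p of 1.00 in limma, exact permutation p = 0.286). Those of Hbb-bt, Hba-a1, Hba-a2 and Alas2 were −0.23, −0.18, −0.18 and −0.12, with SEs from 0.33 to 0.45. Slc4a1 was at 0.36 (SE 0.47), Fech at −0.07 (SE 0.13) and Bpgm at 0.06 (SE 0.13).

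With the libraries labelled HT-Veh 2 and WT-Veh 2 included, the globin differences changed sign. They were 0.02 for Hbb-bs, 0.05 for Hbb-bt, 0.07 for Hba-a1, 0.11 for Hba-a2 and 0.10 for Alas2, with adjusted p from 0.991 to 0.996. The library labelled HT-Veh 2 was the highest of its group for Hbb-bs (4748), and the library labelled WT-Veh 2 the lowest of its group (1708). Genes past the threshold made up 0% of the 17784 tested with 4 and 4 libraries, with 229 at an unadjusted p under 0.05. The smallest p that 4 against 4 libraries can give in the exact test is 0.0286, and the SE of Hbb-bs leaves room for a difference in either direction.

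Fluoxetine exposure early in life was examined in each genotype by comparing the Flx with the Veh group. In HT mice, Hba-a1 had 3661, 1923, 2423, 2491 and 2557 after fluoxetine and 2085, 2641, 3410.4, 832 and 1133 after vehicle. The HT-Veh libraries ran from 832 to 3410.4 and this range contained 4 of the 5 HT-Flx libraries. The log2 difference was 0.52 (SE 0.33, adjusted p = 0.288 in limma, exact permutation p = 0.278). Hba-a2 had 5059, 3203, 3652, 4032 and 3839 against 3127, 4159, 5105, 1277 and 1886, with a log2 difference of 0.50 (SE 0.31, adjusted p = 0.281). The beta-globins were at 0.20 (SE 0.29) for Hbb-bs and 0.40 (SE 0.32) for Hbb-bt, and Alas2 at 0.30 (SE 0.33). Slc4a1 (−0.20, SE 0.47), Fech (0.05, SE 0.11) and Bpgm (−0.02, SE 0.10) did not pass either. Without the libraries numbered 2 of the Veh groups, the values were 0.67 for Hba-a1, 0.65 for Hba-a2, 0.51 for Hbb-bt, 0.35 for Hbb-bs and 0.46 for Alas2. None of the 8 genes passed, and 0% of 17676 genes did (4082 at an unadjusted p under 0.05).

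In WT mice, Hbb-bs had 3321, 3372, 2879, 3869 and 2984 in WT-Flx, where all 5 libraries lay inside the range of WT-Veh. Its log2 difference was 0.07 (SE 0.23), and that of Hbb-bt −0.10 (SE 0.22). Hba-a1, with 1616, 1533, 1118, 1618 and 1568 in WT-Flx and 1441, 1297, 1503, 2417 and 2083 in WT-Veh, was at −0.20 (SE 0.17), Hba-a2 at −0.15 (SE 0.18), Alas2 at −0.33 (SE 0.36) and Slc4a1 at −0.41 (SE 0.56). Fech (−0.03, SE 0.06) and Bpgm (0.08, SE 0.07) were close to 0. None of the 8 passed, with adjusted p from 0.46 to 0.871 in limma, and 0% of 17865 genes did (4504 at an unadjusted p under 0.05). Without the library labelled WT-Veh 2, Hbb-bs turned to −0.15 and the alpha-globins stood at −0.30 and −0.29.

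HT-Flx and WT-Flx, the exposed mice of both genotypes, differed in 63.7% of the 17799 genes tested, and the alpha-globins were among them. Hba-a1 had 3661, 1923, 2423, 2491 and 2557 in the HT-Flx libraries and 1616, 1533, 1118, 1618 and 1568 in the WT-Flx libraries, means of 2611 ± 638 and 1491 ± 211 (SD, n = 5). The lowest HT-Flx library, replicate 2, was above the highest WT-Flx library, and Hba-a1 was 1.73-fold higher (log2 difference 0.79, SE 0.16, adjusted p = 0.000814 in limma). After the correction for GC and length it stood at 0.31 and no longer passed (adjusted p = 0.0536). Hba-a2 had 5059, 3203, 3652, 4032 and 3839 against 2490.3, 2238, 1793, 2713 and 2393, means of 3957 ± 688 and 2325 ± 344, again without overlap. It was 1.70-fold higher (log2 difference 0.76, SE 0.13, adjusted p = 0.000326). For both genes the exact permutation p was 0.00794, the smallest that 5 against 5 libraries can give.

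Alas2 was 1.67-fold higher in HT-Flx, with 213, 108, 121, 210.0 and 133 against 121, 88.0, 44.3, 121 and 103. Its groups overlapped, 5 of 5 HT-Flx libraries were above the WT-Flx mean, and it passed in limma (log2 difference 0.74, SE 0.29, adjusted p = 0.0385) but not in the exact permutation test (p = 0.0556). The call of Alas2 was lost without HT-Flx 1 (0.61, adjusted p = 0.0961), HT-Flx 4 (0.62, adjusted p = 0.0885), WT-Flx 2 (0.73, adjusted p = 0.0637) or WT-Flx 3 (0.49, adjusted p = 0.0823). The beta-globins did not pass. Hbb-bs had 4367, 2887, 4697, 1847 and 5568 in HT-Flx, on both sides of the WT-Flx values, and a log2 difference of 0.14 (SE 0.24, adjusted p = 0.629). Hbb-bt had 1047, 630.4, 1037, 399 and 978 against 579, 532, 469, 582 and 462, and a log2 difference of 0.56 (SE 0.24, adjusted p = 0.0549). HT-Flx 4 was the lowest HT-Flx library for both, and without it Hbb-bt passed (0.79, adjusted p = 0.000839) while Hbb-bs did not (0.38, adjusted p = 0.0601).

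Slc4a1 ran from 7.22 to 27.8 in HT-Flx and from 1.04 to 18.7 in WT-Flx (0.96, SE 0.57, adjusted p = 0.161). Fech, at 1792 to 2001 against 1793 to 1911, and Bpgm, at 1743 to 2014 against 1809 to 1984, differed by 0.06 (SE 0.07) and −0.01 (SE 0.07) and did not pass. These counts have to be read against the whole table, since 63.7% of the 17799 genes tested passed in this comparison. Of the 8 genes 3 passed, all higher, where 33.1% of all genes passed and were higher. For 2 of the 8 every HT-Flx library was above every WT-Flx library, which held for 25.6% of all genes. The shares of the 8 genes are near or below these backgrounds. After the correction for GC and length, the difference of Hba-a2 was 0.28 (adjusted p = 0.0355), that of Alas2 0.49 (adjusted p = 0.185) and that of Hbb-bt 0.47 (adjusted p = 0.0909). Fech, whose transcript has the lowest GC content of the 8 (46.0%, against 57.2% for Hba-a1), passed under it at 0.40 (adjusted p = 0.00477). The part of the GC tilt in the alpha-globin difference was not otherwise tested.

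**Figure D2:**
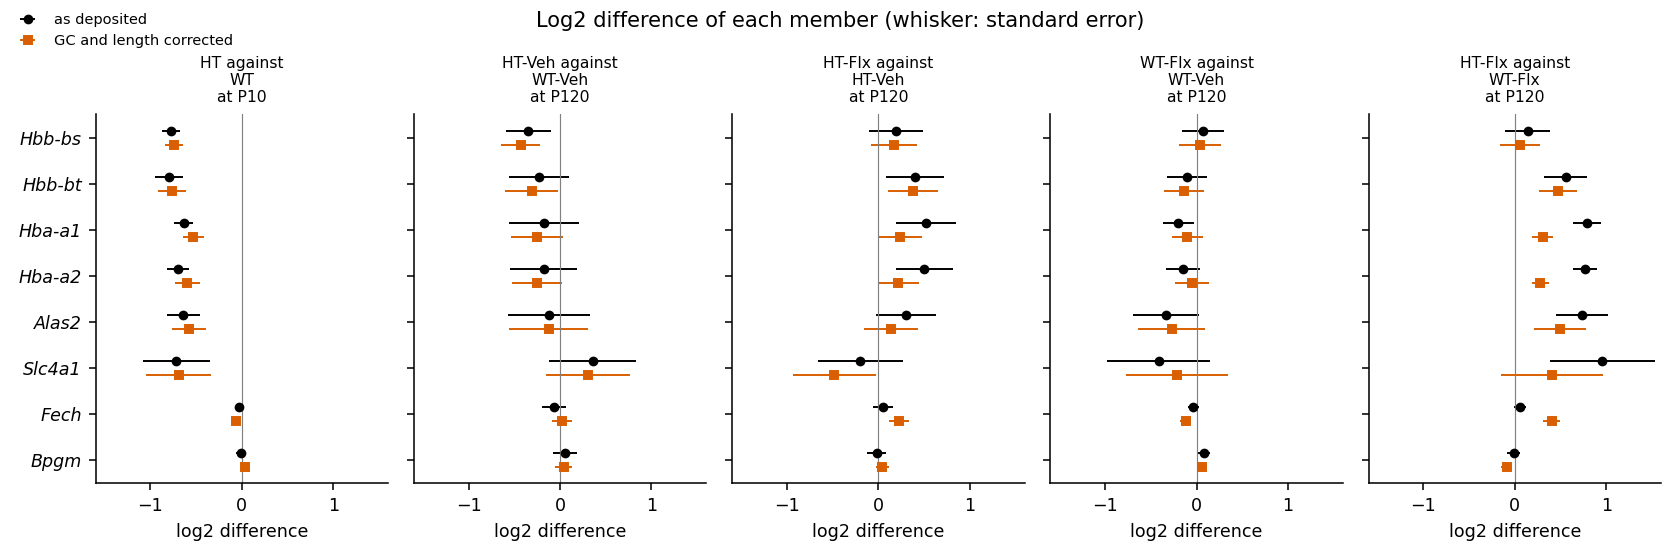
Log2 difference (x axis, first minus second group) of each gene in 5 comparisons, 1 per panel; circles use the values as deposited, squares the values after correction for GC and length, and whiskers are the standard error (n = 5 per group, 4 for HT-Veh against WT-Veh). Hba-a1 and Hba-a2 stand at 0.79 and 0.76 in the HT-Flx against WT-Flx panel and at 0.31 and 0.28 after the correction, while the P10 values of the globins hardly move with it.

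Whether fluoxetine acted differently in the genotypes was tested as an interaction over the 20 P120 libraries. The estimates were 0.72 (SE 0.41, adjusted p = 0.169 in limma) for Hba-a1 and 0.65 (SE 0.40, adjusted p = 0.202) for Hba-a2, then 0.63 for Alas2, 0.50 for Hbb-bt, 0.22 for Slc4a1, 0.13 for Hbb-bs, 0.09 for Fech and −0.10 for Bpgm. None of the 8 passed, where 27.3% of the 17796 genes tested did. Without the libraries labelled HT-Veh 2 and WT-Veh 2, Hba-a1 stood at 0.97 (adjusted p = 0.0967) and Hba-a2 at 0.94 (adjusted p = 0.0874), and no gene of the table passed. Without HT-Veh 3 alone, Hba-a1 passed (0.96, adjusted p = 0.0483 in limma). The number of genes of the whole table that passed changed widely with single libraries left out, as given at the end. Nothing is therefore read from this call. HT-Veh 3 held 3410.4 normalized counts of Hba-a1, the highest value of its group.

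Between P10 and P120, adult WT-Veh brains had less alpha-globin than P10 WT brains. The difference was −0.66 (SE 0.15) for Hba-a1 and −0.44 (SE 0.17) for Hba-a2 on the log2 scale, and −0.53 for Hbb-bs, −0.36 for Hbb-bt, −0.60 for Alas2 and −1.25 for Slc4a1. Fech was higher at P120 by 0.24 and Bpgm by 0.03. In HT mice, where the P10 level was already lower, the values were 0.26 for Hbb-bs, 0.49 for Hbb-bt, 0.04 for Hba-a1, 0.37 for Hba-a2, 0.14 for Alas2, 0.21 for Slc4a1, 0.24 for Fech and 0.12 for Bpgm. Both comparisons reuse the P10 libraries in which the genes were chosen, so the values are a description, and age cannot be told apart from the vehicle and handling that only the P120 mice received. Of the 8 genes 4 were past the threshold in WT (Hba-a1, Hba-a2, Slc4a1 and Fech), where 58.3% of 17927 genes were, and 0 in HT, where 51.1% of 17989 were. Without the library labelled WT-Veh 2 the WT values were −0.32 for Hbb-bs, −0.56 for Hba-a1, −0.30 for Hba-a2 and −0.53 for Alas2, and Hba-a2 was no longer past the threshold. Without the library labelled HT-Veh 2 the HT values of Hba-a1, Alas2 and Slc4a1 turned to −0.10, −0.02 and −0.10.

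How the genes moved together was measured within groups, from each library's deviation from its group mean on the log2 scale, so that no difference between groups enters. The 10 P10 and the 20 P120 libraries were treated apart, with 14 correlations with Hbb-bs and p from permutations within groups, adjusted over the 14. At P10, Hbb-bt followed Hbb-bs (r = 0.91, rho = 0.84, permutation p = 0.00073, adjusted p = 0.00511), as did Hba-a2 (r = 0.90, rho = 0.92, permutation p = 0.00346, adjusted p = 0.0155). Hba-a1 (r = 0.77, rho = 0.60, permutation p = 0.0276, adjusted p = 0.0552) and Alas2 (r = 0.76, rho = 0.65, permutation p = 0.0386, adjusted p = 0.0676) were close to the threshold. At P120, Hbb-bt followed Hbb-bs closely (r = 0.94, rho = 0.93), with 1e-05 as the permutation p, the smallest that the draws can give, and an adjusted p of 0.00014. Hba-a1 (r = 0.61, rho = 0.70, permutation p = 0.00636, adjusted p = 0.0178), Hba-a2 (r = 0.63, rho = 0.69, permutation p = 0.00442, adjusted p = 0.0155) and Slc4a1 (r = 0.52, rho = 0.57, permutation p = 0.00818, adjusted p = 0.0191) passed as well, and Alas2 did not (r = 0.46, rho = 0.55, permutation p = 0.0665, adjusted p = 0.103).

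Fech and Bpgm did not follow Hbb-bs at either age. Fech had r = 0.39 and rho = 0.09 at P10 and r = 0.30 and rho = 0.00 at P120, with permutation p of 0.449 and 0.276. Bpgm had r = −0.65 and rho = −0.38 at P10 and r = 0.34 and rho = 0.23 at P120, with permutation p of 0.112 and 0.246. The relation of Hbb-bs with Hbb-bt at P120 held without the 2 libraries farthest from the median of Hbb-bs, WT-Veh 2 and HT-Flx 4 (r = 0.91). Without them Hba-a1 and Hba-a2 both stood at r = 0.73 and Alas2 at r = 0.74, past the threshold, and Slc4a1 at r = 0.49, no longer past it. At P10, without HT 3 and HT 4, r was 0.78 for Hbb-bt, 0.72 for Hba-a2, 0.46 for Hba-a1 and 0.21 for Alas2, and none passed over these 8 libraries. The Hbb-bt relation had a permutation p of 0.0184 there (adjusted p = 0.0514). Without the libraries labelled HT-Veh 2 and WT-Veh 2, r at P120 was 0.94 for Hbb-bt, 0.54 for Hba-a1, 0.50 for Hba-a2 and 0.48 for Slc4a1, and the last 3 had an adjusted p of 0.0562.

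**Figure D3:**
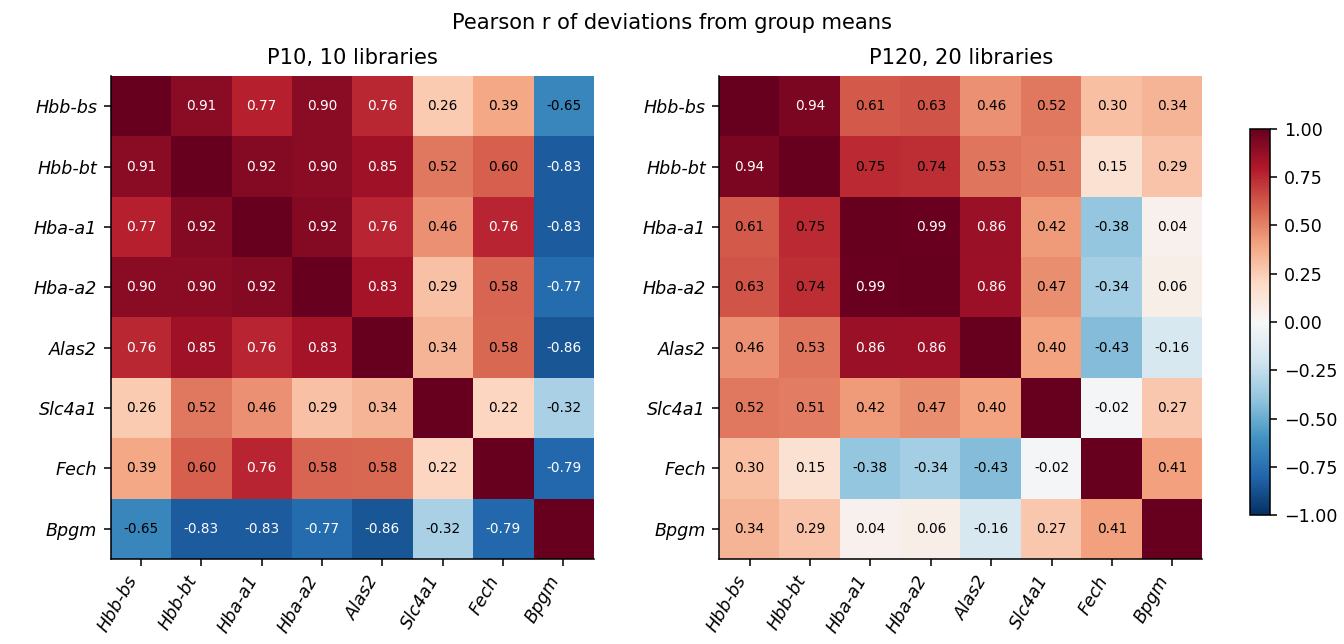
Pearson r between each pair of the 8 genes, from deviations of the log2 values from group means, at P10 (left, 10 libraries) and P120 (right, 20 libraries); the colour scale runs from −1 to 1. The globin genes and Alas2 form a block of r from 0.76 to 0.92 at P10, and at P120 r was 0.94 for the beta pair, 0.86 to 0.99 among the alpha genes and Alas2, and 0.75 and 0.74 between Hbb-bt and the alpha genes. Bpgm is negative against every other gene at P10, and Fech has r = 0.76 with Hba-a1 there.

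In the adult libraries r between pairs of the genes covered a wide range. Hba-a1 and Hba-a2 had r = 0.99 with each other at P120, and Alas2 had r = 0.86 with both and 0.46 with Hbb-bs. Hbb-bt had r = 0.75 with Hba-a1 and 0.74 with Hba-a2, between these values, and differences between correlations were not tested. The alpha genes share windows as well, so the r between them has the same limit as that of the beta pair. Fech, the other haem enzyme, was at −0.38 with Hba-a1, −0.34 with Hba-a2 and −0.43 with Alas2 at P120. Without the libraries labelled HT-Veh 2 and WT-Veh 2, Alas2 had r = 0.85 with Hba-a1 and 0.86 with Hba-a2. Fech then had −0.64, −0.68 and −0.62 with Hba-a1, Hba-a2 and Alas2. HT-Veh 3 held the lowest Fech (1628) and the highest Hba-a1 and Hba-a2 of its group, and the negative r of Fech were not computed without it. At P10 the sign was the other way, and Fech had r = 0.76, 0.58 and 0.58 with Hba-a1, Hba-a2 and Alas2. P10 HT 4 held the lowest Fech (1433), Hba-a1, Hba-a2 and Alas2 at that age, and these r were not computed without it. The r of Fech with Hbb-bs at P10 went from 0.39 to −0.65 without HT 3 and HT 4. Nothing is therefore read from the change of sign between the ages. Of all libraries, HT-Flx 4 and HT-Veh 3 had the most alpha-globin for their beta-globin. HT-Flx 4 held 6522 normalized counts of summed alpha-globin and 2247 of summed beta-globin, and HT-Veh 3 held 8515 and 3929. Without these libraries, chosen after their values were seen, r with Hbb-bs over the remaining 18 libraries was 0.94 for Hbb-bt, 0.82 for Hba-a1, 0.86 for Hba-a2 and 0.71 for Alas2, with rho of 0.92, 0.83, 0.87 and 0.77. These are given as a description with no p.

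**Figure D4:**
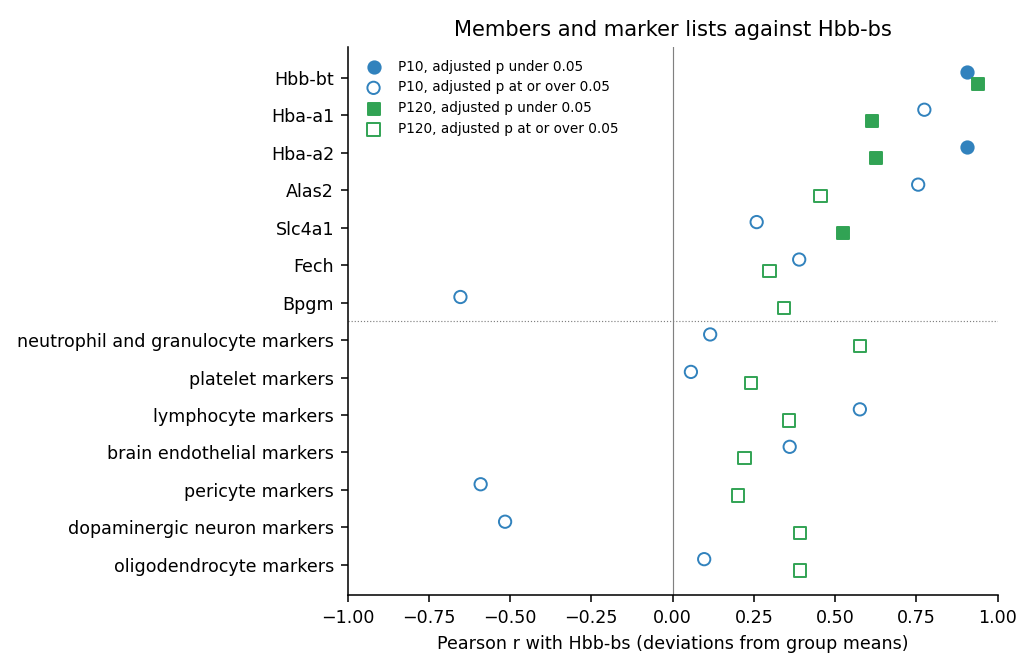
Pearson r with Hbb-bs (x axis) of the other 7 genes and of 7 marker lists (y axis), from deviations from group means, at P10 (circles, n = 10) and P120 (squares, n = 20); filled symbols have an adjusted permutation p under 0.05. Hbb-bt, Hba-a2, Hba-a1 and Slc4a1 hold the filled symbols, and no marker list has one.

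The ratio of alpha- to beta-globin within a library is free of its overall scaling. In log2 units the ratio of the summed pairs was 0.56 ± 0.62 in HT-Flx, −0.0033 ± 0.15 in WT-Flx, 0.28 ± 0.50 in HT-Veh, against 0.21 ± 0.22 in WT-Veh (SD, n = 5). HT-Flx 4 stood at 1.54 and HT-Veh 3 at 1.12, and the other 28 libraries of the series between −0.20 and 0.69. HT-Flx against WT-Flx differed by 0.57 (exact permutation p = 0.0556, adjusted p = 0.508 over 24 ratio tests). Fech relative to Alas2 differed by −0.69 in the same comparison (exact permutation p = 0.0952, adjusted p = 0.571), and Alas2 relative to Hbb-bs by 0.60 (exact permutation p = 0.238). Slc4a1 relative to Hbb-bs was lower in WT-Veh than in P10 WT by 0.80 on the log2 scale, and by 0.94 without the library labelled WT-Veh 2. This is a description, since it reuses the P10 libraries, and P10 WT replicate 1 stood apart at −6.05. None of the 24 ratio tests passed after adjustment.

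**Figure D5:**
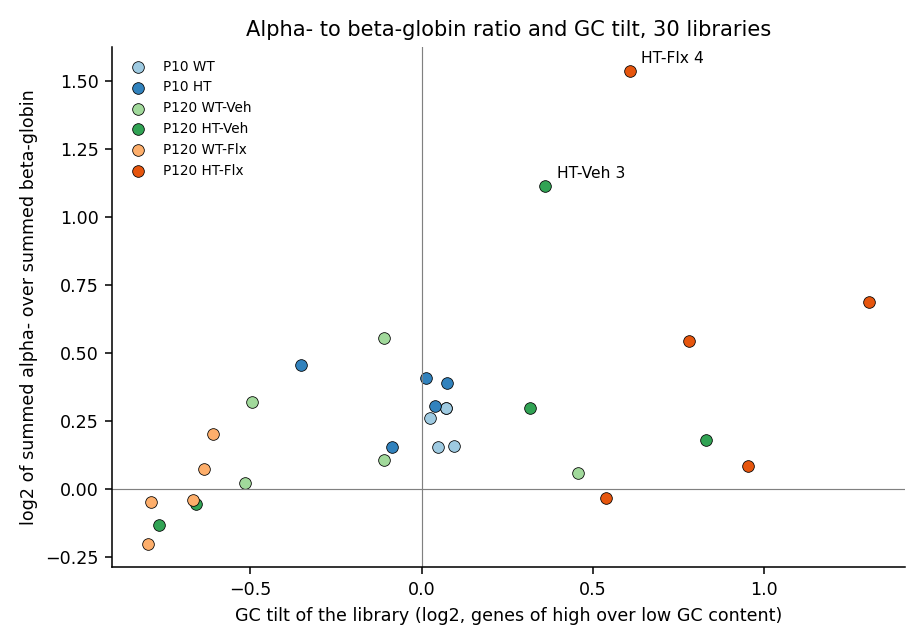
Log2 ratio of summed alpha-globin to summed beta-globin (y axis) against the GC tilt of the library (x axis, log2, set to a mean of 0 within each age), 1 point per library (n = 30), coloured by group. HT-Flx 4 and HT-Veh 3 lie apart at 1.54 and 1.12, and WT-Flx and HT-Flx lie at opposite ends of the x axis.

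Since alpha-globin transcripts are richer in GC than beta-globin transcripts (57.2% and 56.9% against 51.3% and 50.8%), the ratio was set beside the GC tilt. Within the P120 groups, over 20 libraries, the ratio and the tilt had r = 0.25 and rho = 0.34 (permutation p = 0.436 and 0.190). Without the 2 libraries farthest from the median tilt, r was 0.30 and rho 0.45. Without HT-Flx 4 and HT-Veh 3 it was r = 0.43 and rho = 0.51 (permutation p = 0.0938 and 0.0690). Without the libraries labelled HT-Veh 2 and WT-Veh 2 it was r = 0.25 and rho = 0.30. No relation past the spread was shown within groups. These correlations use deviations from group means, which remove any difference in tilt between groups. They therefore cannot speak to the ratio difference between HT-Flx and WT-Flx, whose tilts did not overlap.

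Other genes of the pathway were read from fixed lists. The counts in HT-Flx against WT-Flx stand beside 63.7% of all genes that passed, 33.1% that passed and were higher and 5437 of 17799 that passed and were lower, so nothing particular to the lists is read from them. In HT-Flx against WT-Flx, 4 of the 7 remaining haem synthesis genes rose, Alad (0.91), Alas1 (0.50), the form of the first enzyme that cells outside the red lineage use, Ppox (0.39) and Urod (0.23). Cpox and Uros did not pass and stood at 0.02 and −0.12. The median of this list was 0.23, beside 0.02 over all genes tested. Of 7 haem breakdown and transport genes 3 rose, Hmox1 (0.62) and Hmox2 (0.32), the haem oxygenases, and Blvrb (0.58), and 3 fell, Blvra (−0.45), the haem exporter gene Flvcr1 (−0.81) and Abcg2 (−0.93). Of 9 tested red cell membrane genes 5 rose, Sptb (0.91), Ank1 (0.82), Aqp1 (0.79), Add2 (0.54) and Dmtn (0.49), with a list median of 0.49. All of these are also used by neurons or other brain cells, and the strictly red cell members Epb42, Rhag and Kel were not analysed here.

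Of 11 tested erythroid regulators and late erythroid genes, 6 rose in HT-Flx against WT-Flx and 4 fell. Tal1, a transcription factor of blood and vessel precursors, was at 0.89, and Epor, the erythropoietin receptor gene, at 0.78. Tfrc, the transferrin receptor gene that brings iron into red cell precursors and brain endothelium, fell by 1.26 on the log2 scale, and the mitochondrial iron importer gene Slc25a37 fell by 0.43. The globins of other cells, Ngb (neuroglobin) and Cygb (cytoglobin), rose by 0.88 and 1.08. No gene of any of these lists passed in limma between the genotypes at P10 or in vehicle mice, or between fluoxetine and vehicle in either genotype. Over all genes, 0.0224% passed at P10 and 0% in each of these P120 comparisons, so nothing particular to the lists is read from this. In the interaction, Alad (0.76), Alas1 (0.47), Sptb (0.81) and Add2 (0.51) passed among the haem synthesis and membrane genes, with 27.3% of all genes, and none of them passed without the libraries labelled HT-Veh 2 and WT-Veh 2 (0.80, 0.43, 0.86 and 0.45).

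Between P10 WT and WT-Veh at P120, 4 of the 7 haem synthesis genes were past the threshold and higher in the adult, Urod (0.65), Alad (0.58), Alas1 (0.29) and Cpox (0.27). Over all genes, 58.3% were past the threshold in either direction, and 5174 of 17927 were past it and higher. The comparison reuses the P10 libraries, so the count is a description. In HT the same 4 and Ppox (0.47) were past it, with Urod at 0.80 and Alad at 0.88, beside 51.1% of all genes, of which 4634 of 17989 were higher. Without the libraries labelled HT-Veh 2 and WT-Veh 2 the same 4 were past it in WT, and all of these but Alas1 in HT. Of the embryonic and minor globins, Hbq1a and Hbq1b were in the table, and their sum ran from 21.9 to 33.9 normalized counts at P10 and from 4.33 to 24.3 at P120. The embryonic genes Hbb-y, Hbb-bh1, Hbb-bh2 and Hba-x were not analysed here.

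Markers of other blood and vessel cells were then set beside Hbb-bs from mouse to mouse. None of 14 correlations passed after adjustment, and the smallest adjusted p was 0.352 for r and 0.179 for rho (0.548 and 0.262 without the libraries labelled HT-Veh 2 and WT-Veh 2). The neutrophil list had r = 0.58 and rho = 0.58 at P120 (permutation p = 0.0340 and 0.0322), and r = 0.48 and rho = 0.43 without those libraries. At P10 the lymphocyte list had r = 0.58 and rho = 0.66 (permutation p = 0.0503 and 0.0383) and the pericyte list r = −0.59 and rho = −0.73 (permutation p = 0.210 and 0.0356). In HT-Flx against WT-Flx the pericyte sums did not overlap, at 7337 to 8565 against 5654 to 6564, although 4 of the 6 genes were past the threshold and higher and 2 past it and lower. Endothelial sums ran from 16854 to 18800 against 15281 to 16947, but most of the 15 genes went the other way, with 6 past the threshold and lower, 3 past it and higher and a median of −0.18. The neutrophil sums ran from 186 to 487 and from 144 to 210.1, and S100a9 and Ltf were past the threshold. In this comparison 63.7% of all genes tested passed, and 33.1% passed and were higher. For 25.6% of single genes every HT-Flx library was above every WT-Flx library. Nothing particular to these lists is therefore read from the counts or the missing overlap. The part of these cells in the alpha-globin difference was not tested.

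The genes nearest to Hbb-bs over the 30 deviations from group means were, after Hbb-bt (r = 0.93), Hadha (0.79), which encodes a subunit of the mitochondrial enzyme of fatty acid oxidation, Prdx4 (0.76), a peroxiredoxin gene, 4933434E20Rik (0.76), BC031181 (0.73), Cldnd1 (0.73), Elf2 (0.73), Ndufs6 (0.72), a subunit gene of respiratory complex I, Suclg2 (0.72) and Cidea (0.72). Hbb-bt had r = 0.91 at P10 and 0.94 at P120. The other 9 had r between 0.75 and 0.85 at P120 but between −0.40 and 0.26 at P10. Over 17955 genes the median r was −0.01, with 14 genes above 0.7 and 13 below −0.7. Without the libraries labelled HT-Veh 2 and WT-Veh 2, the 10 genes had r from 0.64 (Suclg2) to 0.93 (Hbb-bt). Hba-a2 was 43rd and Hba-a1 65th in this order, Slc4a1 616th, Alas2 628th, Fech 2629th and Bpgm 5109th. The libraries share their scaling and GC tilt, and Hbb-bt shares windows with Hbb-bs, so these values are a description.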

How the data were processed

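Whole-brain RNA of 30 male mice was measured in 6 groups of 5 libraries. The deposited values are a normalized signal per gene. To make them, the authors prepared TruSeq libraries from poly-A RNA, sequenced 100-base read pairs on a NovaSeq and estimated transcript abundance with Salmon 1.1.0, using GRCm38 and the option that models GC bias. Gene totals came from tximport and were scaled in DESeq2 1.30.1, and the submitters' processing notes also name R 4.1.1. The values are called normalized counts in the text. They are not whole reads, so depth per library is unknown, no count model was used and no counting interval is given. Precision rests on the spread between mice. Gene symbols were matched for 99.9% of the 19737 identifiers. Positions, GC content and transcript lengths come from the GRCm38 annotation, promoter windows from RefSeq on GRCm38.p6 (6 of the 8 genes matched).

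Values were tested on the log2(value + 1) scale with limma 3.58.1 (R 4.3.3), with an intensity trend, over all genes with a mean of at least 10 in the compared libraries, and p was adjusted by the Benjamini-Hochberg method at 0.05. A fold change on this scale understates that of low genes such as Slc4a1. Single genes and ratios were tested by exact permutation of the libraries, two-sided, and correlations with 100000 two-sided permutations within groups. HT-Veh and WT-Veh were compared in replicates 1, 3, 4 and 5. The GC and length correction subtracts each library's mean deviation in 100 bins of genes and was added after values had been seen. The genes and the lists of other genes were chosen with earlier results of these data known. Named genes were the 8 members, Arid1b, the 10 genes nearest to Hbb-bs and, of each list, the genes past the threshold. Some genes of the lists are not reported here. HT-Flx 4 and HT-Veh 3 were picked out from their values. In simulated data with 200 genes changed by 1 log2 unit, limma recovered 90% of them at P10 (17896 genes in the fit), 71% for HT-Flx against WT-Flx (17799 genes) and 40% for HT-Veh against WT-Veh (17784 genes). The changed genes were drawn at random, and the noise was independent between genes and libraries, with no GC tilt. These shares therefore do not say how often smaller differences, such as those of the globins, would be found.

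The alternatives tried were pseudocounts of 5 and 0.1, no filter, a mean of at least 100, rescaling by median-of-ratios size factors, no trend, Hbb-bs as a covariate, the replicate number as a block, the GC and length correction, all P120 groups in 1 fit, and each library left out in turn. The size factors over all 30 libraries were 1.01 for each library, so the rescaling could not alter the correlations and is no check of them. Python 3.11.15 with pandas 2.3.3, numpy 2.4.6, scipy 1.17.1 and matplotlib 3.10.9 was used for ratios, correlations and plots.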

Additional observations from a re-analysis of the deposited data

Results flagged for a closer look

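Within each group of 5 libraries, the highest and the lowest value of each gene and ratio was compared with its neighbour by Dixon's test, and 5 of 72 tests passed, where chance gives about 1 in 20. Bpgm was highest in P10 HT replicate 4 at 2027 normalized counts, against 1733 in the next library. P10 HT replicate 4 was also the lowest library of its group for all 4 globins and Alas2. Slc4a1 was highest in P10 WT replicate 1 at 73.4, against 23.4 in the next library, and the same library had the highest log2 ratio of Slc4a1 to Hbb-bs in its group, −6.05. Hba-a1 was lowest in WT-Flx replicate 3 at 1118, a library that was also lowest for Hba-a2 (1793), Alas2 (44.3) and Hbb-bs (2879). Fech was lowest in HT-Veh replicate 3 at 1628, the library with the highest Hba-a1 and Hba-a2 of its group. Explanations for these values were not tested.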

How the results depend on the processing

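Of the 8 genes, 1 passed at P10 as fitted first, Hbb-bs, and 0 passed without the trend or with Hbb-bs as a covariate, 4 with a replicate block with or without the GC and length correction, and 0 to 3 with single libraries left out. The Hbb-bs call was lost without P10 HT replicate 2 or 3 or without P10 WT replicate 1, 2, 3 or 5. For P120 HT-Veh against P10 HT the count went from 0 to 1 with a mean of at least 100, with the replicate block, with the GC and length correction and with both, and was 0 to 2 with single libraries left out. For P120 WT-Veh against P10 WT it was 4, 2 with Hbb-bs as a covariate, and 2 to 6 with single libraries left out. For HT-Flx against WT-Flx it was 3, and 2 to 4 with single libraries left out. There Fech passed and Hba-a1 and Alas2 no longer did under the GC and length correction, and Hbb-bt passed with Hbb-bs as a covariate (0.43, adjusted p = 0.00217 in limma). The interaction gave 0 to 1, and the other comparisons 0, with single libraries left out. Of the correlations with Hbb-bs 6 passed, and 3 without the libraries numbered 2 of the Veh groups. The cause of these changes was not tested.

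Several estimates that passed in no setting changed sign. Under the GC and length correction, with or without the replicate block, Bpgm in HT-Flx against HT-Veh went to 0.045, Fech in HT-Veh against WT-Veh to 0.025 and Slc4a1 in the interaction to −0.28, and without the block the log2 ratios in HT-Flx against HT-Veh went to −0.048 for Alas2 to Hbb-bs and 0.11 for Fech to Alas2. Without the libraries numbered 2, Slc4a1 in HT-Flx against HT-Veh went to 0.11 and Hbb-bs in WT-Flx against WT-Veh to −0.15, and with them the log2 ratio of Fech to Alas2 in HT-Veh against WT-Veh went to −0.13. For HT-Veh against WT-Veh, all 5 and 5 libraries gave 0.10 for Alas2, 0.065 for Hba-a1, 0.11 for Hba-a2, 0.015 for Hbb-bs and 0.051 for Hbb-bt, and Hbb-bs as a covariate gave 0.49, 0.28 and 0.26 for the first 3 and 0.24 for Hbb-bt. Without the libraries farthest from the median, r with Hbb-bs became −0.65 for Fech and 0.087 for Bpgm at P10, −0.25 and −0.11 at P120, −0.044 for platelet markers at P10 and −0.043 for endothelial markers at P120. With the GC and length correction it became −0.13 for neutrophil and −0.22 for lymphocyte markers at P10 and −0.33 for lymphocyte markers at P120. Without the libraries numbered 2 it became −0.12 for endothelial and −0.15 for pericyte markers at P120.

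With single libraries left out, estimates that changed sign in HT-Veh against WT-Veh ran from −0.42 to 0.15 for Alas2, −0.54 to 0.14 for Hba-a1, −0.52 to 0.14 for Hba-a2 and −0.44 to 0.051 for Hbb-bt, and the log2 ratios from −0.00064 to 0.36 for Alas2 to Hbb-bs, −0.25 to 0.40 for Fech to Alas2 and −0.13 to 0.29 for alpha to beta. In HT-Flx against HT-Veh they ran from −0.036 to 0.016 for Bpgm, −0.46 to 0.11 for Slc4a1, −0.25 to 0.31 for Alas2 to Hbb-bs and −0.47 to 0.014 for Fech to Alas2. In HT-Flx against WT-Flx they ran from −0.033 to 0.019 for Bpgm and −0.015 to 0.38 for Hbb-bs. In WT-Flx against WT-Veh they ran from −0.15 to 0.23 for Hbb-bs, −0.27 to 0.040 for Hbb-bt, −0.63 to 0.095 for Slc4a1 and −0.95 to 0.048 for Slc4a1 to Hbb-bs. The Slc4a1 difference there was fitted with 7 libraries left out in turn, since it fell below the filter on low values without the others. In the interaction the estimates ran from −0.035 to 0.37 for Hbb-bs and −0.29 to 0.53 for Slc4a1. Between the ages they ran, in WT, from −0.22 to 0.13 for Alas2 to Hbb-bs and −0.11 to 0.026 for alpha to beta, and in HT from −0.16 to 0.32 for Fech to Alas2, −0.23 to 0.21 for Slc4a1 to Hbb-bs and −0.27 to 0.042 for alpha to beta. Values given without a test crossed 0 as well, in HT between the ages Hba-a1 (−0.20 to 0.31), Alas2 (−0.033 to 0.38) and Slc4a1 (−0.10 to 0.47), in WT between the ages Bpgm (−0.0096 to 0.058), and at P10 Fech (−0.057 to 0.0019) and Bpgm (−0.059 to 0.010).

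The first fits did not pair libraries by replicate number, and no comparison had a correlation over 0.1 for every pair of the same number. In HT-Flx against HT-Veh the mean was 0.179 and the lowest −0.018, against a mean of −0.044 for pairs of other numbers. There 3 of 5 libraries were closest to their own number, and whether the numbers pair these libraries was not tested. Over all genes, the replicate block moved the genes past the threshold in HT-Flx against HT-Veh from 0 to 1355 (2 with the GC correction as well) and at P10 from 4 to 7 (9 with both, and 8 without P10 HT replicate 1). In HT-Flx against WT-Flx they went from 11330 to 6579 with the GC and length correction and 5436 with both. In the interaction they went from 4852 to 0 with that correction, to 0 without the libraries numbered 2, and to between 0 and 7667 with single libraries left out. In WT-Flx against WT-Veh they went from 0 to 1400 without WT-Veh replicate 1 and 624 without WT-Veh replicate 5. Depth is unknown, and Slc4a1, at a few normalized counts, is the gene that it limits most.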
